A study of Drosophila melanogaster with 6 samples.

Results

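Unannotated splice junctions are joins between parts of a transcript that sequencing reads cross but that the gene annotation used for counting does not list. The deposited table marked 418 of its 128393 features as such junctions, by a feature identifier that starts with N, and all 418 are described here. They lay in 306 genes, called host genes below, out of 14737 genes in the table, beside 54271 annotated junctions and 73704 exonic bins. The measurements came from whole-embryo lysates of Drosophila melanogaster. The mutant group carried the CC01391 allele of caper, and it was set against embryos of the strain OreR (Oregon-R), a wild-type laboratory strain, with 3 biological replicates of each genotype sequenced in a single lane. No treatment was given to either group, and neither the age of the embryos nor the genetic background of the mutant strain was stated, so the allele, the strain background and any difference in stage cannot be told apart.

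When a pre-messenger RNA is spliced, the spliceosome removes each intron and joins the exons on either side, and a read that crosses the join reports which donor and acceptor sites were used. Gene annotations list the joins that earlier evidence showed. A join outside that list can be a rarely used splice site, a skipped exon, an exon of an unlisted isoform, or an alignment that does not correspond to a real transcript, and the count does not tell these apart. The caper gene encodes an RNA-binding protein related to vertebrate RBM39, which takes part in splice site choice. The position of each junction within its gene was not analysed here, so junctions are named by the symbol of the gene and the N number of the deposited table.

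The libraries held 42905168, 36979138 and 42956396 gene counts in mutant replicates 1 to 3, against 36299246, 40241577 and 34815930 in OreR replicates 1 to 3. Unannotated junctions took 14114, 12807 and 14532 of the counts in the mutant libraries and 12793, 14534 and 12548 in the OreR libraries. Summed markers of several tissues differed between the genotypes in these whole-embryo samples, while those of hemocytes overlapped. Only sums are given, so a shift may rest on single genes of a set. The summed level of 3 muscle markers was 1140 to 2180 CPM (counts scaled by the standard counts-per-million convention) in mutant embryos and 2620 to 3950 CPM in OreR embryos, and that of 5 neuronal markers was 515 to 528 CPM against 711 to 911 CPM. The 4 hemocyte markers summed to 335 to 371 CPM against 325 to 339 CPM, and 5 larval cuticle genes to 1.59 to 2.27 CPM against 3.88 to 5.8 CPM. The 9 testis markers summed to 278 to 335 CPM against 189 to 202 CPM, with 3 of them at 0 in every library, and 9 chorion genes of the follicle cells to 0.377 to 0.503 CPM against 0.566 to 0.928 CPM, with 2 at 0. In lysates of whole embryos, a difference in the makeup of cells cannot be told apart from a difference in splicing within cells, and the part of these shifts in the junction results was not tested.

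Most unannotated junctions were rare. Their mean count per library had a median of 12.2, from 6.0 to 752, and the smallest normalised mean over the 6 libraries was 6.02, so the table appears to have kept only those above a minimum of 6. No such minimum applied to annotated junctions, of which 16520 lay below it. As a share of the gene's count, which is the junction count divided by the count of the whole gene, the median was 0.208%, from 0.0085% to 21.4%. A share above 1% was reached by 70 junctions, and 121 stayed below 0.1%. A count of 13, the median over junctions and libraries, has an exact 95% Poisson interval from 6.92 to 22.2, which covers counting error only. Detection was nearly complete, since 407 of the 418 had at least 1 count in every library, which the minimum by itself favours.

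Set beside the most used annotated junction of the same gene, the median unannotated junction reached 2.98% of its count, and 320 of 418 stayed below 10%. Annotated junctions of the same genes had a median of 34.5%. Low use was not limited to unannotated junctions, since 788 of the 4315 annotated junctions in host genes were below 1% of the highest, against 71 of the 418 unannotated ones. At the other end, 11 unannotated junctions reached at least 50% of the highest annotated one, and 2 exceeded it. CG1529 N008 had 306% of the count of the highest annotated junction of its gene, and NaCP60E N082, in a gene of the voltage-gated sodium channel family, had 139%. By genotype, the value of CG1529 N008 was 299% in mutant and 313% in OreR embryos, while that of NaCP60E N082 was 250.0% in mutant and 70.8% in OreR embryos, so that it exceeded the annotated junctions in the mutant alone.

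**Figure D1:**
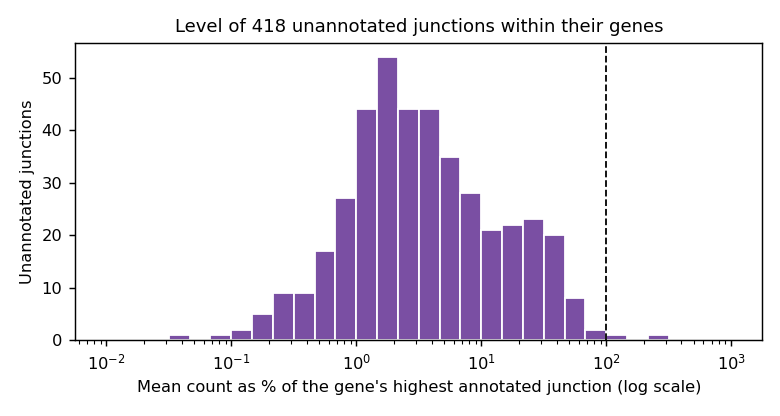
Histogram of the mean count of the 418 unannotated junctions as a percent of the most used annotated junction of the same gene, on a log axis, with a dashed line at 100%. The bulk lies between 1% and 10%, around the median of 2.98%, and 2 junctions lie beyond the line.

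The unannotated junctions that took the largest part of their gene did not pass edgeR's usage test between the genotypes. CG30423 N008 had 727, 549 and 724 counts in mutant embryos and 689, 752 and 745 in OreR embryos, with shares of 21.0 ± 1.65% and 21.8 ± 1.42% (SD, n = 3 each). It reached 59.5% of the highest annotated junction, in a gene whose level was 82.5 ± 1.54 CPM in mutant and 84.8 ± 3.34 CPM in OreR embryos. The values of both genotypes overlapped. dpr7 N022, in a gene for a cell-surface protein of the immunoglobulin superfamily, had 195, 126 and 141 counts in mutant and 192, 252 and 197 in OreR embryos, with shares of 17.97 ± 1.55% and 19.7 ± 1.11%. It had 91.7% of the count of the highest annotated junction.

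Shares near 10% were found for firl N016, with 9.97 ± 2.15% in mutant and 13.1 ± 2.70% in OreR embryos, and for CG11052 N014, with 10.8 ± 1.59% and 7.12 ± 3.13%. CG1529 N008 had 74, 68 and 85 counts in mutant and 97, 65 and 82 in OreR embryos, and its shares were 5.87 ± 0.489% and 5.99 ± 1.11%. CG41378 N011 took 6.21 ± 1.00% and 6.60 ± 0.670%. The share of FBgn0058178 N031, in a gene without a symbol in the tables used here, was 4.55 ± 0.596% in mutant and 6.62 ± 0.402% in OreR embryos, without overlap but with an adjusted p of 0.422 by the usage test of edgeR described below. DESeq2 and limma called it as lower (adjusted p = 0.0189 and 0.0257). Pvf3 N015, in a gene for a ligand of the PDGF and VEGF family, took 4.15 ± 0.685% and 5.01 ± 0.352%, and SREBP N023, in the gene for the sterol-regulatory transcription factor, took 4.03 ± 0.606% and 4.50 ± 0.259%. The last of the 10 highest shares, side-VIII N045, rested on 13, 5 and 8 counts in mutant and 8, 18 and 11 in OreR embryos.

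The highest counts, besides those of CG30423 N008, were found in 4 other genes. dco N012, in the gene for the casein kinase 1 of the circadian clock, had 809, 936 and 1068 counts in mutant and 601, 497 and 602 in OreR embryos. The gene itself was higher in the mutant, at 658 ± 73.5 CPM against 432 ± 44.0 CPM, and the share of the junction was 3.72 ± 0.313% against 3.33 ± 0.270%. gish N060, in the gene for a casein kinase 1 of the gamma type, had 488, 462 and 493 counts in mutant and 332, 376 and 359 in OreR embryos, but a share of 2.02 ± 0.161% in mutant and 2.66 ± 0.111% in OreR embryos (adjusted p = 0.537, edgeR usage test). It was called as lower in DESeq2 (adjusted p = 0.00621) and limma (adjusted p = 0.0235). CtBP N023, in the gene for a transcriptional corepressor, took 1.86 ± 0.108% and 2.31 ± 0.0601%. Fas3 N025, in the gene for the adhesion protein Fasciclin 3, took 2.61 ± 0.309% and 2.26 ± 0.173%. None of the 5 most counted junctions passed edgeR's usage test.

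Host genes had higher counts, more annotated junctions and longer introns than other genes. Among genes with a mean count of at least 1000, the median count was 7661 in the 284 host genes and 3214 in the 5413 others. The host genes had a median of 11 annotated junctions, a span of 13228 bases and a longest intron of 5357 bases, against 4 junctions, 3431 bases and 392 bases in the others, with spans and introns taken from the later BDGP6 annotation. This later annotation listed more introns than the deposited table had annotated junctions in 113 of 269 host genes (42.0%) and in 668 of 4788 other genes (14%). With 10 or more annotated junctions the shares were 51.8% of host genes and 24.8% of the others. Whether the added introns were the unannotated junctions of the table was not tested, because the builds differ.

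Chromosome 4, the small and largely heterochromatic chromosome of the fly, stood apart. Among genes with a mean count of at least 1000, 25 of 59 on chromosome 4 held an unannotated junction (42.4%), against 244 of 5347 on the other arms (4.56%). The other arms ranged from 3.10% on 2L to 6.44% on 2R. Chromosome 4 had 7.41 unannotated junctions per 100 annotated ones and the other arms had 1.05. In all, 55 of the 418 junctions lay in 27 genes of chromosome 4. Its genes also had higher counts (median 8599 against 3258), more annotated junctions (10 against 4) and longer introns (median longest intron 2197 against 441 bases). Where only genes with 10 or more annotated junctions were compared, 17 of 33 on chromosome 4 were host genes (51.5%), against 151 of 917 on the other arms (16.5%). With a mean count of at least 5000, 21 of 42 genes on chromosome 4 were host genes, against 163 of 1800 on the other arms (9.06%). With a longest intron of at least 1000 bases, they were 22 of 48 (45.8%) and 208 of 2071. Genes are not independent replicates, and these shares are given as a description of the table without a test.

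**Figure D2:**
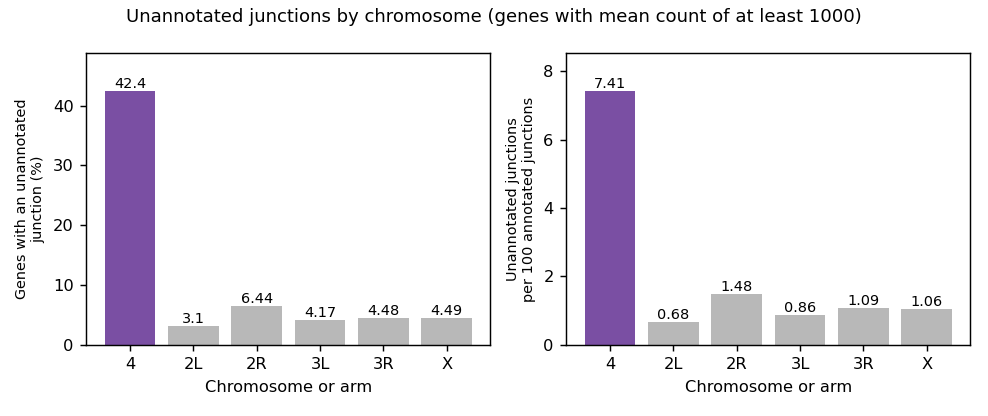
Bars show, for genes with a mean count of at least 1000, the percent of genes that hold an unannotated junction (left panel) and the number of unannotated junctions per 100 annotated ones (right panel), by chromosome or arm. Chromosome 4 stands at 42.4% and 7.41, and no other arm exceeds 6.44% and 1.48.

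Summed over all of them, unannotated junctions were slightly lower per gene count in the mutant. Relative to all gene counts of the library, on the CPM scale, they summed to 329.0, 346.3 and 338.3 in mutant and 352.4, 361.2 and 360.4 in OreR embryos, with means of 337.9 ± 8.69 and 358.0 ± 4.84 (SD, n = 3 each). All mutant libraries lay below all OreR libraries, with an exact two-sided permutation p of 0.1, the smallest that 3 against 3 libraries allow. Relative to the annotated junction counts of the library, on the same scale, they summed to 1150 ± 18.5 in mutant and 1182 ± 40.9 in OreR embryos (exact permutation p = 0.3), and the libraries overlapped. The number of junctions with at least 1 count was 416, 414 and 417 in mutant and 415, 412 and 414 in OreR libraries (exact permutation p = 0.3). These numbers lie near the ceiling of 418, because of the minimum of the table, and leave little room for a difference. The median share per library was 0.193 ± 0.0102% in mutant and 0.208 ± 0.00749% in OreR embryos (exact permutation p = 0.2). These 3 comparisons of single values were set up together, and none of their p-values can pass 0.05 after adjustment. In genes of chromosome 4, unannotated junctions had 6.16 ± 0.678 counts per 1000 counts of annotated junctions in mutant and 6.35 ± 0.304 in OreR embryos (exact permutation p = 0.7). Without the 5 most counted junctions the direction turned, with 3.88 ± 0.122 against 3.35 ± 0.182 (exact permutation p = 0.1), and it also turned without mutant replicate 3. In genes of the other arms the values were 1.04 ± 0.0315 and 1.07 ± 0.0313 (exact permutation p = 0.4).

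Single junctions changed in both directions. Usage was tested as the log2 change of a junction less the change of its gene, with edgeR's diffSpliceDGE over all features of the table and p-values adjusted over all of them by the Benjamini-Hochberg method. The filter on low counts kept 263 of the 418 unannotated junctions, and 155 were too low to be tested. Of the 263, 28 in 25 genes had an adjusted p below 0.05, 14 with higher and 14 with lower usage in the mutant. This was 10.6% of those tested, against a background of 1.82% of all tested features (0.563% higher and 1.26% lower), and 630 of 35554 annotated junctions (1.77%). In the host genes alone, 4.02% of the annotated junctions and 4.23% of the exonic bins were called. Since a rare junction can pass the minimum of the table and the filter through a single genotype, the selection itself favours changed members, and these shares are given as a description. Split by mean count, 12.3% of unannotated (15 of 122) and 3.73% of annotated junctions were called below 20 counts. From 20 to 50 counts these were 10.7% (9 of 84) and 2.71%, and from 50 counts upwards 7.02% (4 of 57) and 1.28%. The last 4 were smash N045, Rad23 N013, heph N095 and heph N097.

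**Figure D3:**
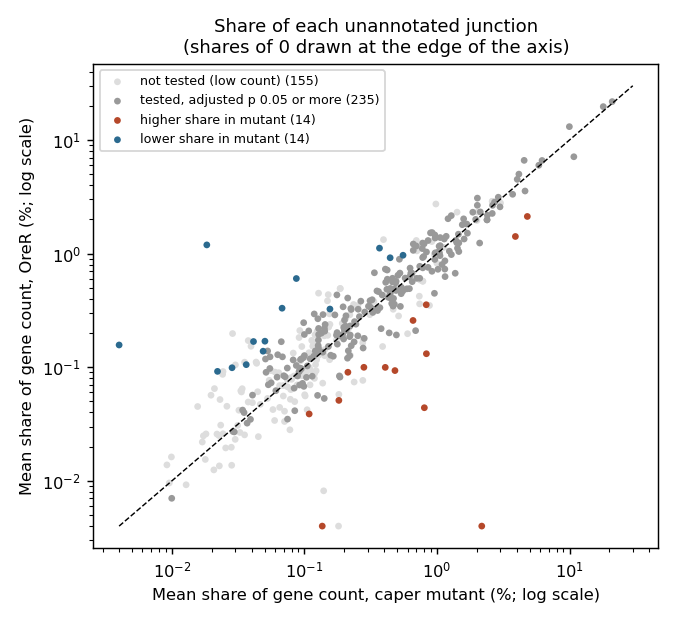
Mean share of the gene's count in percent for each of the 418 unannotated junctions, in mutant embryos on the horizontal and in OreR embryos on the vertical axis, both log scaled, with a dashed line of equal shares and shares of 0 drawn at the edge. Colours mark the 14 junctions with higher and the 14 with lower usage in the mutant, which lie away from the line among 235 tested junctions that were not called and 155 that were not tested.

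All 28 called junctions had shares that did not overlap between the genotypes, and 27 of them differed at least 2-fold in usage, 14 higher and 13 lower. Among all 263 tested junctions, shares did not overlap in 97 (36.9%), 42 higher and 55 lower in the mutant, against 21.6% of all tested features (6.26% higher and 15.4% lower). An unadjusted p below 0.05 was reached by 66. The median absolute log2 usage change was 0.36 for unannotated and 0.11 for annotated junctions, and the signed medians were -0.05 and -0.04. The absolute medians depended on depth, and most annotated junctions had higher counts. They were 0.491 and 0.312 below 20 mean counts, 0.335 and 0.211 from 20 to 50, and 0.209 and 0.0884 from 50 upwards. In 11 of the 28, namely those of smash, CG31751, CG9967, Dbp80, Gprk2, MESR3, NaCP60E, Hcf and Asator together with CaMKII N054 and heph N098, the call held under each of the 14 alternative fits. The other 17 kept their direction and lost the call in at least 1 of them. Called junctions with few counts in 1 genotype passed the minimum of the table and the filter through the other genotype alone, which favours a call. Among these were heph N099 and the junctions of smash, CG31751, CG9967, Dbp80, MESR3, Asator, conu, sgg and Gprk1. No alternative fit removes the minimum of the table.

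Among junctions with counts in both genotypes, the largest decrease was found in smash, which encodes a LIM domain protein of adherens junctions. smash N045 had 3, 2 and 2 counts in mutant embryos, against 115, 129 and 118 in OreR embryos. The 2 groups were far apart in every library, with shares of 0.0184 ± 0.00490% and 1.19 ± 0.101%, a 65.0-fold lower share in the mutant. Usage fell by 5.998 on the log2 scale (SE 0.37, adjusted p = 1.79e-30, edgeR usage test). In edgeR's test with the gene count as an offset, the adjusted p was 0.000577. smash N045 passed the minimum of the table and the filter through the OreR libraries alone, which favours such a difference. The gene itself was at 335 ± 35.8 CPM in mutant and 256 ± 10.5 CPM in OreR embryos, higher in the mutant. Over all 6 libraries the junction had 16.8% of the count of the highest annotated junction.

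heph, which encodes the fly homolog of the polypyrimidine tract binding protein, a repressor of exon inclusion, held 6 unannotated junctions, of which 4 changed. Usage changes in heph were not limited to these, since 15 of 36 tested exonic bins and 6 of 29 tested annotated junctions were also called. The background was 1.82% of all tested features. heph N099 had 0, 0 and 0 counts in mutant and 11, 21 and 18 in OreR embryos. With a floor of 3 counts over the 3 mutant libraries, 0 counts allow a share of up to 0.00566%, and the share was at least 27.8-fold lower in the mutant (adjusted p = 3.35e-14, edgeR usage test). This junction passed the minimum of the table and the filter through the OreR libraries alone, which favours such a difference. In edgeR's test with the gene count as an offset, its adjusted p was 0.0526. heph N098 had 8, 8 and 21 counts against 31, 36 and 38, and its usage fell by 2.36 on the log2 scale (SE 0.36, adjusted p = 7.79e-08). Usage of heph N097 fell by 0.91 (SE 0.23, adjusted p = 0.0089), with 88, 84 and 124 counts in mutant and 111, 100 and 96 in OreR embryos. These counts overlapped, while the shares, 0.555 ± 0.0729% and 0.967 ± 0.0801%, did not. heph N095 went the other way, with 147, 136 and 156 counts in mutant and 40, 22 and 50 in OreR embryos, and its share was 0.830 ± 0.0340% against 0.355 ± 0.141% (log2 usage 1.10, SE 0.25, adjusted p = 0.00154). The calls of heph N097 and N095 were lost when single libraries were left out, N097 without mutant replicate 2 or OreR replicate 1 and N095 without OreR replicate 2. The remaining pair, N094 and N096, had 14, 7 and 17 counts against 3, 4 and 6, and 12, 7 and 10 counts against 13, 11 and 7; N094 was too low to be tested and N096 had an adjusted p of 0.749. The gene was at 462 ± 50.2 CPM in mutant and 268 ± 15.1 CPM in OreR embryos.

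Usage also fell strongly in Dbp80 and Gprk2, whose gene levels were higher in the mutant. Dbp80 N034, in the gene for a DEAD-box RNA helicase, had 10, 3 and 3 counts in mutant and 23, 29 and 27 in OreR embryos, with shares of 0.0869 ± 0.0646% and 0.604 ± 0.0669% (log2 usage -2.76, SE 0.24, adjusted p = 5.65e-08). Without mutant replicate 1, the highest of the mutant libraries, the log2 change was -3.55. Dbp80 N034 passed the minimum of the table and the filter through the OreR libraries alone, which favours such a difference. Gprk2 N026, in the gene for a kinase of G protein-coupled receptors, had 28, 25 and 27 counts in mutant and 75, 80 and 47 in OreR embryos. Its share was 0.368 ± 0.0277% against 1.12 ± 0.237% (log2 usage -1.59, SE 0.18, adjusted p = 2.16e-05). In both, each mutant library was below each OreR library.

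Further decreases rested on lower counts and were called less stably. sgg N078, in the gene for the kinase GSK3 of Wnt signalling, had 7, 3 and 2 counts in mutant and 13, 15 and 13 in OreR embryos (adjusted p = 0.0028, edgeR usage test), and Fer2LCH N016, in the gene for the ferritin light chain, had 8, 3 and 8 against 21, 17 and 11 (adjusted p = 0.00881). hfp N031, in the gene for the fly PUF60 splicing factor, had 9, 5 and 4 against 12, 17 and 10 (adjusted p = 0.0183). Prosap N025, in the gene for the Shank scaffold of synapses, had 5, 5 and 9 against 14, 23 and 14 (adjusted p = 0.0253). CG30122 N026 had 13, 12 and 12 against 19, 28 and 23 (adjusted p = 0.00915). In these 5 the counts of the 2 genotypes did not overlap. Without mutant replicate 1, the log2 usage change of sgg N078 was -2.74, against -2.08 with all libraries.

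In cno the counts did not overlap either, and in gus and Nct the counts overlapped and only the shares were separate. cno N045, in the gene for the afadin homolog of adherens junctions, had 45, 42 and 35 counts in mutant and 48, 74 and 51 in OreR embryos, and a share of 0.156 ± 0.0323% against 0.325 ± 0.0552%. gus N021, in the gene for a SOCS-box adaptor of a ubiquitin ligase, had 8, 9 and 12 counts against 10, 20 and 15, and a share of 0.0364 ± 0.00453% against 0.105 ± 0.0391%. Nct N020, in the gene for nicastrin of the gamma-secretase complex, had 45, 45 and 44 counts against 38, 51 and 64, and a share of 0.443 ± 0.0465% against 0.919 ± 0.261%. The level of each of these genes was higher in the mutant, by 0.64, 0.92 and 0.90 on the log2 scale for cno, gus and Nct. The call of sgg N078, Fer2LCH N016, hfp N031, Prosap N025, CG30122 N026, cno N045, gus N021 and Nct N020 was lost without at least 1 of the libraries, in each case including mutant replicate 2 or OreR replicate 2.

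Among the increases, 2 junctions had counts in the mutant and none in OreR embryos. CG9967 N017 had 18, 15 and 22 counts in mutant and 0, 0 and 0 in OreR embryos, a share of 2.18 ± 0.301% in the mutant. OreR embryos had 0 of 1660 gene counts, which allows a share of up to 0.181%, so that the mutant share was at least 12.1-fold higher (adjusted p = 6.21e-09, edgeR usage test). conu N033, in the gene for a GTPase-activating protein, had 25, 21 and 19 counts in mutant and 0, 0 and 0 in OreR embryos. Its mutant share of 0.136 ± 0.0275% stood at least 11.6-fold above the 0.0117% that 0 counts allow (adjusted p = 1.08e-08). CG31751 N009 was close to this pattern, with 34, 14 and 18 counts against 1, 0 and 1, a share ratio of 20.8 (exact 95% interval 5.53 to 175, counting error only). CG9967 N017, conu N033 and CG31751 N009 passed the minimum of the table and the filter through the mutant libraries alone. The selection itself therefore favours such a difference. In edgeR's test with the gene count as an offset, their adjusted p was 0.0344, 0.0579 and 0.0428.

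MESR3 N009 and NaCP60E N082 rose in genes that were not called higher in the mutant. MESR3 N009 had 18, 12 and 12 counts in mutant and 2, 4 and 2 in OreR embryos, with shares of 0.832 ± 0.0480% and 0.132 ± 0.0277% (log2 usage 2.56, SE 0.47, adjusted p = 0.000415). MESR3 N009 passed the minimum of the table and the filter through the mutant libraries alone, which favours such a difference. NaCP60E N082 had 40, 38 and 42 counts in mutant and 21, 21 and 21 in OreR embryos. Its share was 3.91 ± 0.426% against 1.42 ± 0.227%, a log2 usage change of 1.49 (SE 0.31, adjusted p = 0.000768). The gene was at 26.9 ± 1.88 CPM in mutant and 37.97 ± 3.29 CPM in OreR embryos.

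All 5 called junctions in genes of chromosome 4, of 36 tested there, were higher in the mutant, and their counts did not overlap between the genotypes. Of all unannotated junctions tested, 5.32% were called higher and 5.32% lower. Of the 1631 bins and annotated junctions tested on chromosome 4, 0.736% were called higher and 1.1% lower. Rad23 N013, in the gene for a ubiquitin receptor that also acts in nucleotide excision repair, had 79, 84 and 79 counts in mutant and 28, 30 and 14 in OreR embryos, and shares of 0.660 ± 0.0738% and 0.258 ± 0.0963%. Hcf N041, in the gene for host cell factor, a chromatin cofactor, had 59, 44 and 58 counts against 18, 14 and 10, and shares of 0.281 ± 0.0364% and 0.0999 ± 0.0304%. Asator N037, in the gene for a kinase of the tau-tubulin kinase family, had 23, 24 and 28 counts against 5, 5 and 5, and shares of 0.407 ± 0.0472% and 0.0998 ± 0.0191%. Asator N037 passed the minimum of the table and the filter through the mutant libraries alone, which favours such a difference. Taf3 N016, in the gene for a subunit of the general transcription factor TFIID, had 42, 35 and 43 counts against 14, 14 and 14. The log2 usage changes of these 4 were 1.38 (SE 0.21), 1.49 (SE 0.24), 2.00 (SE 0.32) and 1.23 (SE 0.16), with adjusted p of 0.000422, 0.00121, 0.000724 and 0.0281 by edgeR's usage test. The call of Taf3 N016 was lost when any of the 6 libraries was left out.

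CaMKII, the gene on chromosome 4 for a calcium-dependent kinase of synaptic plasticity, held 5 unannotated junctions that did not move together. CaMKII N054 had 37, 42 and 36 counts in mutant and 13, 10 and 11 in OreR embryos (log2 usage 2.36, SE 0.28, adjusted p = 3.51e-08, edgeR usage test), while the gene was lower in the mutant, at 210 ± 13.4 CPM against 312 ± 24.8 CPM. CaMKII N053 had 9, 15 and 9 counts against 1, 1 and 1, a share ratio of 17 (exact 95% interval 5.33 to 86.6, counting error only). It was too low for the filter, and without a filter its adjusted p was 2.02e-06. CaMKII N053 reached the minimum of the table almost entirely through the mutant libraries, which favours such a difference. CaMKII N055 had 41, 38 and 20 counts against 81, 99 and 90, with shares of 0.408 ± 0.128% and 0.730 ± 0.0735% that did not overlap and an adjusted p of 0.132 (0.0474 in DESeq2). CaMKII N056 had 3, 2 and 1 counts against 10, 21 and 5 and was not tested, and CaMKII N057 had 10, 10 and 19 counts against 14, 12 and 19.

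The remaining 3 increases were less stable. Gprk1 N035, in another gene for a kinase of G protein-coupled receptors, had 19, 16 and 18 counts in mutant and 2, 0 and 5 in OreR embryos, in a gene at 255 ± 23.7 CPM against 118 ± 5.93 CPM (adjusted p of usage 0.0457, edgeR). Fkbp14 N015, in the gene for a prolyl isomerase of the endoplasmic reticulum, had 24, 13 and 13 counts against 9, 6 and 8 (adjusted p = 0.029). CR43670 N006, in a noncoding RNA gene, had 50, 19 and 33 counts against 15, 16 and 11, and a share of 4.81 ± 1.58% against 2.12 ± 0.406% (adjusted p = 0.032). Without OreR replicate 3 the log2 usage change of Gprk1 N035 was 2.93, against 1.84 with all libraries. Each of the 3 calls was lost without mutant replicate 1 and in at least 4 other alternative fits.

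**Figure D4:**
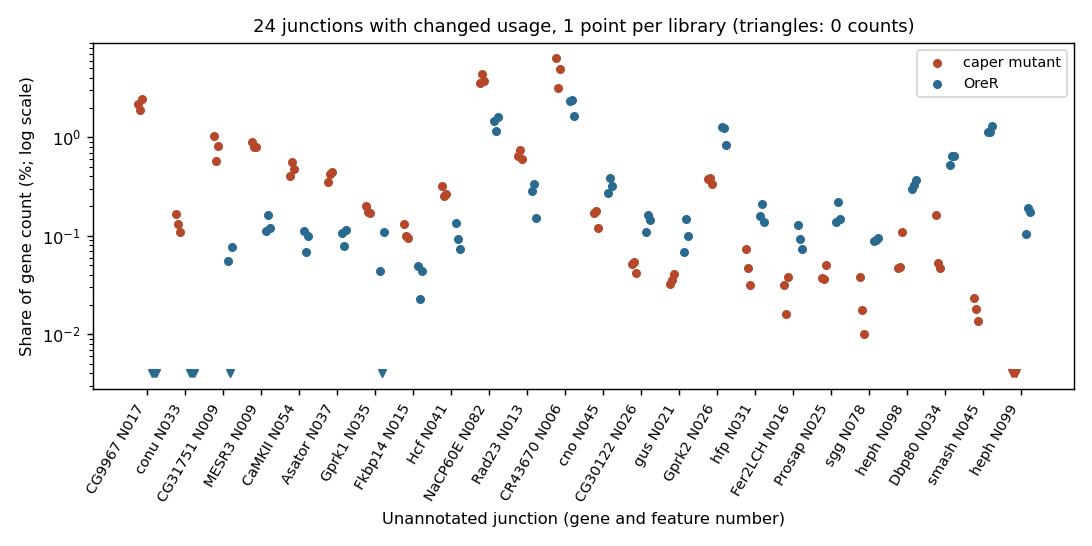
Share of the gene's count in percent, on a log axis, in each of the 6 libraries for the 12 largest increases (left) and the 12 largest decreases (right) in usage, with mutant libraries left of OreR libraries and triangles for libraries with 0 counts. The genotypes do not overlap for any of these 24 junctions.

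For 24 of the called junctions, the annotated junction with the smallest usage p of the same gene was compared, and in 12 of these it was called as well. Because the smallest p was taken, this says only whether any annotated junction of the gene was called. The 12 lay in 11 genes, since heph J075 stood beside both heph N098 and N099, and no matched background was computed. In 7 of the 12 the annotated junction moved in the opposite direction. smash J027 had 193, 216 and 293 counts in mutant and 47, 36 and 49 in OreR embryos, rising as smash N045 fell (log2 usage 2.03, SE 0.21, adjusted p = 6.52e-14, edgeR usage test). CG9967 J014 had 4, 5 and 2 counts against 43, 58 and 38, falling as CG9967 N017 appeared. Dbp80 J028 had 20, 15 and 15 counts against 2, 1 and 2, opposite to Dbp80 N034. Rad23 J008 had 9, 9 and 10 counts against 51, 43 and 55, opposite to Rad23 N013. CR43670 J005 had 1, 0 and 0 counts against 18, 25 and 25, Asator J035 had 17, 20 and 19 against 36, 43 and 35, and CaMKII J029 had 379, 342 and 297 against 846, 1091 and 827. Whether a pair shares a splice site was not analysed here.

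In the other 5 cases the annotated junction moved the same way. heph J075 had 0, 0 and 0 counts in mutant and 36, 31 and 26 in OreR embryos, alongside heph N098 and N099. Fkbp14 J014 had 213, 126 and 189 counts against 59, 72 and 79, rising with Fkbp14 N015. hfp J020 had 5, 5 and 13 counts against 14, 19 and 13, and gus J020 had 55, 66 and 78 against 70, 55 and 93, both with lower usage in the mutant like the unannotated junction. Of the 25 genes with a called unannotated junction, 13 had another bin or annotated junction called and 12 had none. Among all 306 host genes, 90 had a called bin or annotated junction (29.4%), against 647 of the 8510 genes in the usage test (7.6%). Host genes had more annotated junctions, and a gene with more tested features has more chances to hold a call. Per feature, 4.02% of the annotated junctions and 4.23% of the bins of host genes were called, against 1.82% of all tested features.

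**Figure D5:**
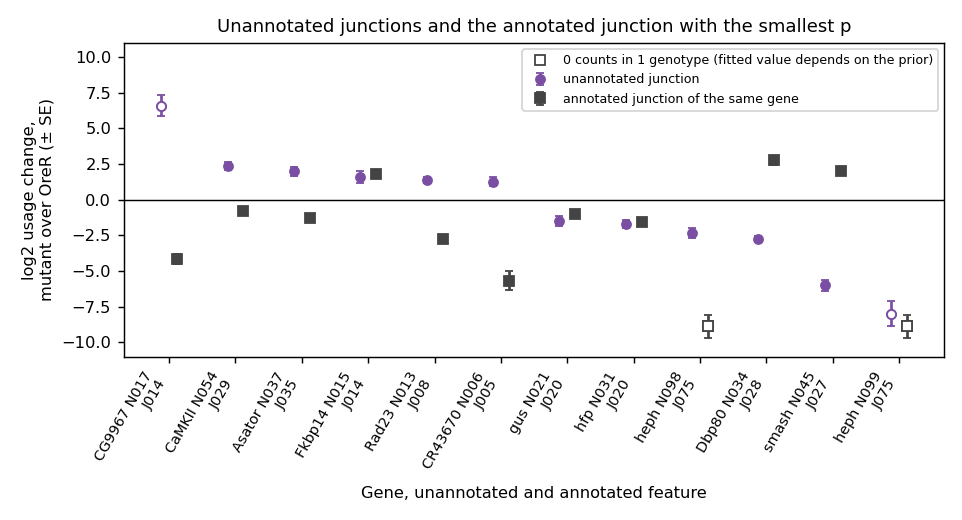
Log2 usage change (mutant over OreR) with its standard error for 12 called unannotated junctions (circles) and the called annotated junction with the smallest usage p of the same gene (squares). For CG9967, CaMKII, Asator, Rad23, CR43670, Dbp80 and smash the pair lies on opposite sides of 0, and open symbols mark features with 0 counts in 1 genotype, whose fitted value depends on the prior.

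Besides heph and CaMKII, the genes with many unannotated junctions included rl with 6 and Nipped-B with 5. rl, the gene for the ERK kinase, had N034 with 36, 36 and 36 counts against 28, 23 and 29. Nipped-B, the gene for the cohesin loader, had N058 with 21, 31 and 20 counts against 31, 30 and 33, with shares of 0.0999 ± 0.0310% and 0.194 ± 0.0123% and an adjusted p of 0.188. None of the 3 junctions of rl and 3 of Nipped-B that could be tested was called, and the other 3 and 2 were too low. In all, 234 host genes held 1 unannotated junction, 48 held 2, 16 held 3 and 8 held 4 to 6.

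Of 36 splicing factor genes of a list that are in the table, 7 were host genes (Hrb27C, bru3, heph, hfp, how, sm and sqd), with 14 unannotated junctions, of which 5 were called: 4 in heph and 1 in hfp. The 7 junctions in the other factors than heph and hfp had between 2 and 16 counts in each library and were too low to be tested. Hrb27C N027 had 10, 4 and 10 counts in mutant and 7, 9 and 13 in OreR embryos, and sqd N026 had 10, 10 and 16 against 7, 4 and 6, both in genes for hnRNP proteins. Of 17 classic targets of alternative splicing in the table, 5 held 1 unannotated junction each. Those of Dscam1 and Nrx-IV were tested and not called, and those of Tm1, slo and sqd were too low to be tested. The most used was Dscam1 N321, in the gene for the cell-surface receptor known for its very large set of alternative isoforms, with 106, 73 and 84 counts against 88, 154 and 90 and shares of 1.45 ± 0.214% and 1.48 ± 0.315%. Nrx-IV N027, in the gene for neurexin IV of septate junctions, had 8, 7 and 14 counts against 10, 9 and 21, and slo N087, in the gene for a calcium-activated potassium channel, had 11, 4 and 10 against 5, 11 and 2. Of 14 sex determination genes in the table, fl(2)d was the single host gene, with 16, 14 and 16 counts of N016 against 9, 20 and 17. The usage background over all tested features was 1.82%, and these lists were too small to be read against it.

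The filter left out some junctions with clear counts in a single genotype. EloA N018, in the gene for elongin A, had 6, 13 and 20 counts in mutant and 0, 0 and 0 in OreR embryos, where 0 counts allow a share of up to 0.0215%. The mutant share was at least 8.65-fold higher. EloA N018 reached the minimum of the table through the mutant libraries alone, which favours such a difference. Without the filter its adjusted p was 7.29e-05 (edgeR usage test), and 4 further junctions were called besides this one and CaMKII N053. In that fit 32 of 418 unannotated junctions were called, and the share over all features was not set beside it. tutl N041 was higher in the mutant, and Rab2 N008, Spn N049 and Rab11 N011 were lower. Spn N049 had 5, 4 and 8 counts in mutant and 6, 17 and 10 in OreR embryos, so that its counts overlapped.

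Junction levels and host gene levels were tested beside usage. By edgeR's quasi-likelihood test, 200 of the 306 host genes changed in level (65.4%), 124 higher and 76 lower in the mutant, against 46.9% of all tested genes (26.4% higher and 20.6% lower). Under upper quartile scaling the split was 99 higher and 112 lower, and without mutant replicate 2 the count was 126. Of the 263 tested junctions, 74 changed in level (28.1%), 50 higher and 24 lower, against 40.2% of all features, and 41 higher and 47 lower under upper quartile scaling. The directions of these level counts therefore depended on the scaling. Neither share was set against a background of matched count. Host genes had higher counts than other genes and most unannotated junctions were rare, which alters how readily a change is called. Among the 28 junctions with changed usage, 22 also changed in level, all in the direction of the usage change. In 17 of the 28 the gene was called in the direction opposite to the usage change and in 9 in the same direction, against 14 and 7 under upper quartile scaling. Usage is the change of the junction less that of its gene. By itself this favours the same sign for the level of the junction and the opposite sign for its gene.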

How the data were processed

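RNA of whole embryos was sequenced from a stranded Illumina kit as read pairs, per the labels' protocols. The deposited table has the columns of JunctionSeq, per the file headers: the authors gave raw counts of each feature and of the rest of its gene. It also held a normalised signal, which the authors made by dividing each count by a size factor of its library, per the file headers; it was used here only to look for a minimum. Per the submitters' processing notes, the tools included GSNAP 2014-12-17 and SAMtools and the builds BDGP5 and mm10, with no role named. The annotation, the counter and its strand setting are not stated, so reads of overlapping genes cannot be told apart. Feature plus rest gave the gene count; 48 genes with unequal sums held no unannotated junction. Sample titles gave the genotype and the replicate number.

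Usage was tested with diffSpliceDGE of edgeR 4.0.16 in R 4.3.3 (filterByExpr, TMM, genotype as the only term), with its coefficients converted to log2, and levels of genes and junctions with glmQLFTest, all over the whole table with Benjamini-Hochberg adjustment at 0.05. Standard errors came from the test statistics. CPM were scaled to TMM library sizes. P-values of the level tests measure the spread between these biological replicates. Those of edgeR's usage test, and its standard errors, use a spread pooled over the features of a gene. They do not measure the replicate spread of a single junction. With the gene count as an offset, where each junction has its own spread, 15 of the 28 calls remained. No pair of libraries of the same genotype agreed within sampling noise. The usage script was tested on simulated data for this comparison, over 87614 features: it called 6 of 50 features changed 2-fold, 38 of 50 changed 4-fold and 10 of 83302 unchanged ones. Alternatives used DESeq2 1.42.0, limma 3.58.1, other scalings, no filter, junctions alone, a replicate block and each library left out. Symbols, chromosomes and introns were looked up by gene ID in BDGP6 tables, which named 289 of the 306 host genes; as the build differs, no coordinates are printed. Gene counts of caper were not analysed here.

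Named were, by rule, the 12 largest increases and 12 largest decreases in usage among called junctions without overlap, the 10 highest shares in genes with a mean count of at least 100, the 5 highest counts, junctions at 0 in a whole genotype, those of the 5 genes with the most (1 of which is not reported here) and those of 3 gene lists, each largest change with the annotated junction of its gene of smallest usage p. The other called junctions, CaMKII N053 and those called only without a filter were added after their values were seen. The junctions and lists were chosen with earlier results of these data known. Bounds use a floor of 3 counts over a genotype, and floors and intervals cover counting error only.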

Additional observations from a re-analysis of the deposited data

How the results depend on the processing

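The 28 calls of changed usage became between 19 and 26 when single libraries were left out. When junction counts were tested with the gene count as an offset there were 18, 15 of them among the 28. There were between 27 and 33 under the other scalings and tools, without a filter and with junctions alone. These were partly other junctions. Of 30 calls in DESeq2 (12 higher and 18 lower in the mutant), 23 were among the 28. Of 33 in limma (12 higher and 21 lower), 25 were. With the replicate number as a block, 30 were called; deviations of same-numbered libraries correlated at 0.03, -0.13 and 0.73, so the numbers were not taken as pairs. Of the named junctions without a call, gish N060 and FBgn0058178 N031 were called in DESeq2 and limma and CaMKII N055 in DESeq2. No called junction changed direction, and 14 of the 28 kept the call with every single library left out. The median log2 usage change was -0.05 in the analysis reported, -0.02 with junctions alone and -0.107 to -0.042 with single libraries left out. The number of host genes with changed level was 126 to 184 with single libraries left out, lowest without mutant replicate 2. The difference on chromosome 4 in unannotated counts per 1000 annotated counts (mutant less OreR, -0.189) turned to 0.532 without the 5 most counted junctions (3.88 ± 0.122 against 3.35 ± 0.182, exact permutation p = 0.1), and was -0.545 to 0.13 with single libraries left out, positive without mutant replicate 3. All comparisons of chromosome 4 with the other arms, and their alternatives, were chosen after seeing the data. Among named junctions that were not called, 7 changed sign somewhere. With single libraries left out, log2 usage ranged from -0.182 to 0.288 for Nipped-B N056, -0.183 to 0.183 for Dscam1 N321, -0.074 to 0.018 for CG30423 N008, -0.126 to 0.076 for CG41378 N011, -0.21 to 0.616 for Nrx-IV N027, -0.005 to 0.673 for CaMKII N057 and -0.141 to 0.091 for CG1529 N008. Dscam1 N321 stood at 0.003 with the replicate block, CG41378 N011 at 0.014 with junctions alone and Nrx-IV N027 at -0.005 in DESeq2. The cause of these shifts was not tested. Low counts limit the tests: at the median count of 13 per junction and library, counting error alone is wide, and 155 junctions were not tested.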
